A study of Homo sapiens with 6 samples.

Results

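Histone methyltransferases, demethylases and deacetylases were followed in the nascent RNA of A375, an established human melanoma line, carrying either the empty vector (EV) or a plasmid that expresses human PRL3, the phosphatase encoded by PTP4A3. The members are the protein-coding genes whose symbol begins with KMT, SETD, PRMT, KDM, HDAC or SIRT, together with EZH1 and EZH2, which gives 67 genes of the 58243 gene identifiers counted. Of these, 29 encode methyltransferases, 20 demethylases and 18 deacetylases. Both lines were made by stable transfection and kept in 100 µg/ml Hygromycin B, and both were labelled with 4-thiouridine (4sU, 500 µM, 20 min), a uridine analogue that newly made RNA takes up and by which it was purified for sequencing. There were 3 EV libraries (B1, B2, B3) and 3 PRL3 libraries (B9, B10, B11). Nothing in the labels says that the 3 libraries of a group came from separate cultures or that a line was 1 clone or a pool, so p-values measure the spread between these libraries, which may be technical, and a property of 1 transfected line and an effect of PRL3 cannot be told apart.

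Histone tails carry methyl groups on lysine and arginine and acetyl groups on lysine. Methyltransferases of the SET-domain type (KMT, SETD, EZH) write lysine methylation, with H3K4 and H3K36 methylation found at active genes and H3K9 and H3K27 methylation at silenced ones, while PRMT enzymes methylate arginine. Demethylases remove lysine methylation, KDM1 enzymes with a flavin cofactor and the remaining KDM families with a JmjC domain. Deacetylases are either zinc enzymes (HDAC) or NAD-dependent sirtuins (SIRT), and several members of each class act mostly on proteins other than histones. EZH2, SETDB1, KDM5B and KDM1A have all been studied in melanoma.

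The total of reads on genes ranged from 47158709 to 57952035 in the EV libraries and from 36532207 to 56511290 in the PRL3 libraries. PTP4A3 itself had 161, 212 and 279 normalized counts in the EV libraries and 22328, 28767 and 22065 in the PRL3 libraries, a log2 fold change of 6.80 (adjusted p = 1.1e-08, edgeR quasi-likelihood test), in the direction of the labels. A normalized count is a read count divided by the TMM-scaled size of its library and set to the mean size of the 6 libraries. The melanoma lineage markers SOX10, PAX3 and ERBB3 were present in every library, whereas the pigment genes MLANA and TYR were at or near 0. SOX10 (−0.85), S100B (−1.38) and EDNRB (−0.83) fell and PAX3 (0.67) rose on the log2 scale. The summed lineage markers lay between 36042 and 46660 normalized counts in EV and 24358 and 29575 in PRL3. The summed mesenchymal melanoma markers lay between 174891 and 199567 in EV and 97571 and 117677 in PRL3. Neither pair of ranges overlapped. VIM made up most of the mesenchymal sum, with means of 164296 in EV and 87413 in PRL3 (log2 fold change −0.91). AXL (−0.4), NGFR (−1.69) and SOX9 (−2.08) fell too, while EGFR was at 0.09. ZEB1 (0.45, adjusted p = 0.057, edgeR) lay above EV in every PRL3 library. So did MITF of the lineage list (0.36, adjusted p = 0.0738, edgeR), and neither passed the test. The immune markers PTPRC and CD3E were at or near 0, and LYZ had 141, 141 and 64.6 counts in EV and 83.4, 72.9 and 80.4 in PRL3. Summed fibroblast markers lay between 357 and 501 normalized counts in EV and 304 and 329 in PRL3, and summed keratinocyte markers (KRT14 and KRT10, with KRT5 and KRT1 at or near 0) between 3449 and 4384 in EV and 843 and 1178 in PRL3. Their part in the results below was not tested. The share of uniquely aligned reads outside annotated exons was 30.2, 28.7 and 41.1% in EV and 69.1, 62.8 and 66.9% in PRL3, with no overlap between the groups (p = 0.1 by a two-sided exact permutation test, which cannot go lower with 3 libraries each). These reads matched no annotated exon of the counted strand, so a gene's count here is only the part of its nascent RNA that fell in exons. The share's part in the changes of single genes was not tested.

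Of the 67 genes, 63 passed the filter on low counts. Within the whole table of 23884 tested genes, 19 of the 63 fell in PRL3 (30.2%) and 7 rose (11.1%) at an adjusted p under 0.05, while 37 did not pass the test. Among the 14443 protein-coding genes tested, 31.6% fell and 15.2% rose, and among all tested genes 22.7% fell and 20.0% rose, so the share of these genes that fell was near that of protein-coding genes in general. The median of the members was −0.19 on the log2 scale, with protein-coding genes at −0.15 and all genes at 0.11. All PRL3 libraries were below all EV libraries for 24 of the 63 and above them for 11, patterns seen in 36.7% and 22.2% of protein-coding genes. The numbers moved with the scaling between libraries. Using library size alone 7 members fell and 27 rose, using all uniquely aligned reads as the library size 36 fell and 2 rose, and by upper-quartile scaling 16 fell and 13 rose. When protein-coding genes were fitted by themselves 17 fell and 15 rose. Less nascent RNA per cell and fewer cells making it cannot be told apart in bulk libraries.

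Counts were then taken class by class. Of the deacetylases, 10 of 18 fell and 1 rose, with a median log2 fold change of −0.68. Among methyltransferases 6 of 28 tested genes fell and 2 rose, with a median of −0.11. For demethylases the balance was 3 lower and 4 higher of 17 tested, with a median of 0.13. In percent, 55.6, 21.4 and 17.6% of deacetylases, methyltransferases and demethylases fell, against 31.6% of protein-coding genes tested. The shares that rose were 5.56, 7.14 and 23.5%, against 15.2%. No test of the difference between classes was made, and genes of a class are not replicates. The order of the class medians, deacetylases lowest and demethylases highest, was the same under library size alone (−0.19, 0.39 and 0.63 for deacetylases, methyltransferases and demethylases) and under all uniquely aligned reads (−1.16, −0.59 and −0.35). A change of scaling moves all genes by nearly the same amount, so it could hardly change this order. The unchanged order is therefore no support for a difference between classes. The deacetylase median stayed negative in these settings, while the medians of methyltransferases and demethylases changed sign between them. Calls moved too, since with library size alone the deacetylases called were split into 4 lower and 4 higher. In that setting the median of protein-coding genes was 0.34.

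**Figure D1:**
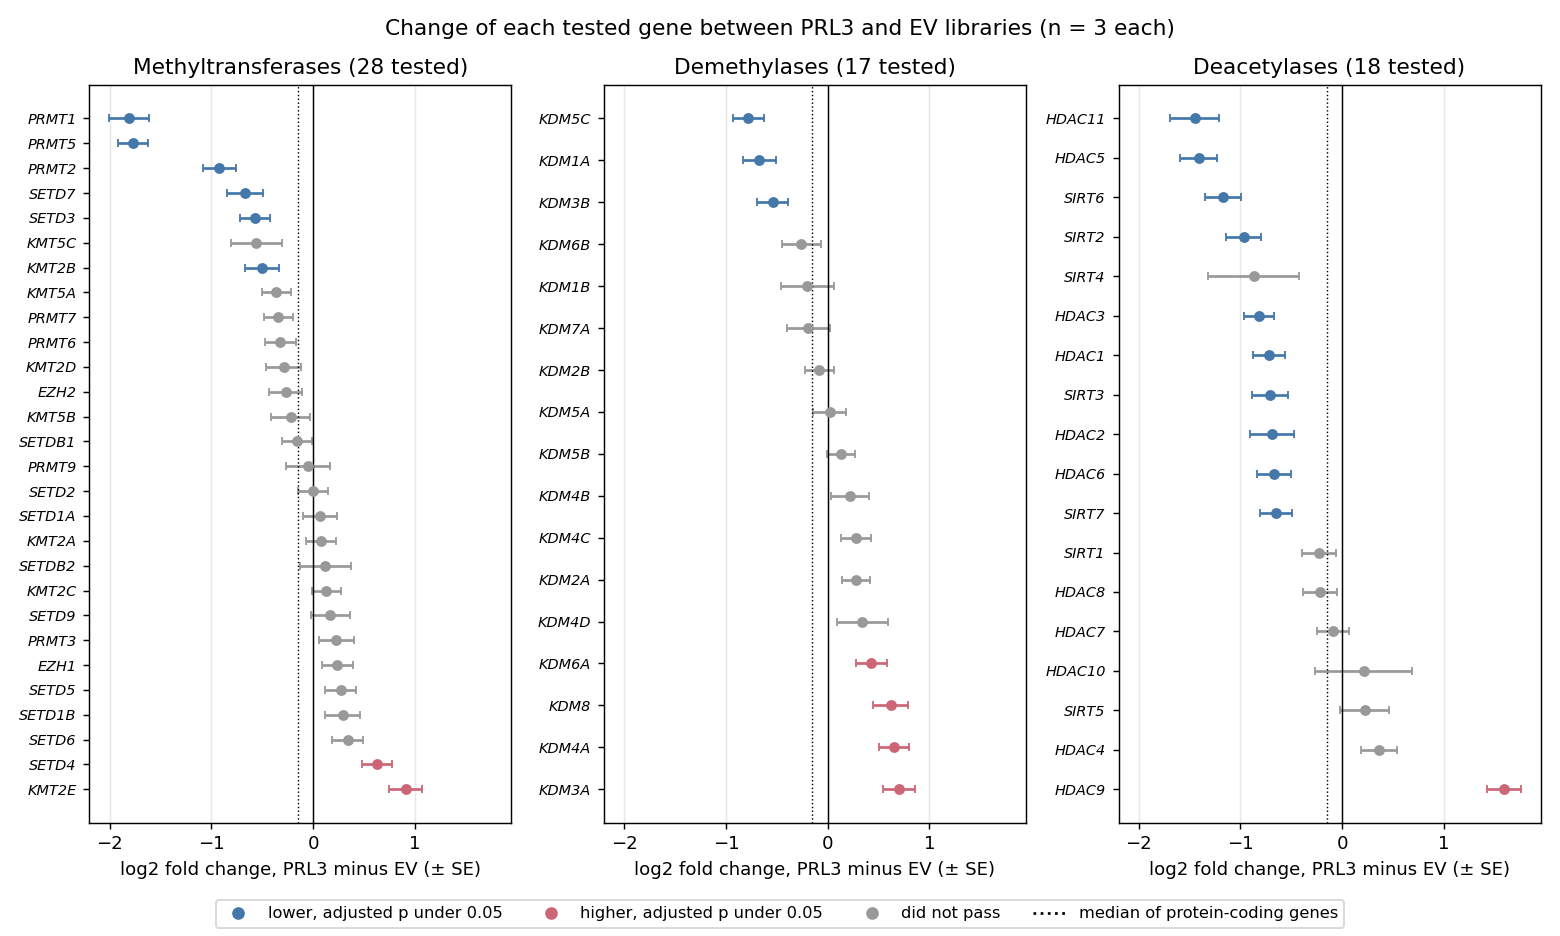
Log2 fold change (PRL3 minus EV, horizontal axis) of the 63 tested genes by class, with the standard error as a bar and the median of protein-coding genes (−0.15) as a dotted line. The deacetylase panel holds 10 of 18 genes called lower, PRMT1 and PRMT5 stand apart at the top of the methyltransferase panel, and HDAC9 at 1.59 is the highest of all.

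The classes were also set against each other as parts of the reads on all members, a measure that does not depend on scaling between libraries but in which a smaller part of one class makes that of another larger. Demethylases held 27.1, 25.3 and 27.9% of member reads in EV and 32.1, 32.6 and 32.5% in PRL3. Deacetylases held 18.3, 18 and 17.4% in EV and 15.1, 16.9 and 16.1% in PRL3, and methyltransferases 54.7, 56.7 and 54.7% against 52.8, 50.6 and 51.4%. The 2 groups were apart in each class. Summed normalized counts of the demethylases were 61139 ± 674 in EV and 60157 ± 1272 in PRL3 (SD, n = 3), close together, while those of the methyltransferases went from 126680 ± 8067 to 95927 ± 2127 and those of the deacetylases from 40973 ± 2523 to 29796 ± 1963. PRMT1 alone went from a mean of 29311 to 8366. The 67 genes together received 0.398, 0.414 and 0.416% of all gene reads in EV and 0.494, 0.45 and 0.46% in PRL3.

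Levels differed widely between the genes when counts were set per kb of annotated exon. PRMT1 was highest in EV with 6112 normalized counts per kb, followed by PRMT5 with 2430, HDAC1 with 2239, HDAC3 with 1038 and KMT5A with 984. At the low end were HDAC10 with 8.51, SIRT5 with 23.5 and KDM7A with 43.1 counts per kb. In GENCODE 44, 55.8% of the HDAC10 exon length is shared with another gene on the same strand, where reads may go uncounted. The value per kb was set over the full exon length, and the part of the overlap in it was not tested. In PRL3 PRMT1 was still the highest with 1744 per kb, HDAC1 came next with 1361, and PRMT5 stood at 711, below KDM2A at 828 and KMT5A at 767.

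Arginine methyltransferases held the largest decreases of all members. PRMT1 and PRMT5, together with KMT2E and KDM4A on the higher side, are the genes with the smallest p in each direction among called members that have a single window in the promoter table, and their promoters are shown because these genes carry the changes described here. The windows run from 250 bases before to 50 bases after the RefSeq transcription start (RefSeq, GRCh38.p14), 5′ to 3′ on the gene's strand. They lie at chr14:22929327-22929626 (minus strand) for PRMT5, chr19:49677021-49677320 (plus) for PRMT1, chr7:105013955-105014254 (plus) for KMT2E and chr1:43649899-43650198 (plus) for KDM4A. Capitals mark the CCAAT motif, read as CCAAT or, on the other strand, as ATTGG.
PRMT5: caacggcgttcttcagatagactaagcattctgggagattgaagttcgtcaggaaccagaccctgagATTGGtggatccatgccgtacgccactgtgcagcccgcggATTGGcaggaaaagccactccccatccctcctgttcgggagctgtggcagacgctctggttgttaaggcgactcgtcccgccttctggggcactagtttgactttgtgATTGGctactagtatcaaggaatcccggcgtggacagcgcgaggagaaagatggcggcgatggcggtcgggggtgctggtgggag
PRMT1: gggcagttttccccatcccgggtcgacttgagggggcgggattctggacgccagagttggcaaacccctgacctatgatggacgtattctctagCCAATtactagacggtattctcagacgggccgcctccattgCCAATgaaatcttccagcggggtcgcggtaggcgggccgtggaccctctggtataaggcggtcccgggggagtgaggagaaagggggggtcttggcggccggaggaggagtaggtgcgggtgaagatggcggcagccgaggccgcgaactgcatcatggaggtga
KMT2E: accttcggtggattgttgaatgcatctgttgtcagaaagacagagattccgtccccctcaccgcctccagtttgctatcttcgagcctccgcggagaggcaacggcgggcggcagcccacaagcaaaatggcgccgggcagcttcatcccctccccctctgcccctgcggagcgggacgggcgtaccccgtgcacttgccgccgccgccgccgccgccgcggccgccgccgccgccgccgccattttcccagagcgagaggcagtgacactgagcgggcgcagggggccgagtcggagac
KDM4A: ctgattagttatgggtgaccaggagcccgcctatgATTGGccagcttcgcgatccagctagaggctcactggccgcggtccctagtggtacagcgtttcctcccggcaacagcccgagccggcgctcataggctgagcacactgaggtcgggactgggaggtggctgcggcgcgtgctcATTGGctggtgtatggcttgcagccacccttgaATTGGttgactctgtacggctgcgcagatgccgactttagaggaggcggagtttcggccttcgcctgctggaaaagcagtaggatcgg
The motif was present 3 times in the PRMT5 window, 2 times in that of PRMT1 and 3 times in that of KDM4A, with no match in that of KMT2E, so it stood in genes that moved in either direction. Over the promoter table, 34.7% of 22199 protein-coding windows held at least 1 match on either strand. Of the members, 63 of 67 matched the table by symbol, with 92 windows in all since some genes have several. A match was found in 31.5% of these 92, in 9 of 20 windows of members that fell (45%), in 7 of 12 of those that rose (58.3%) and in 12 of 56 of those that were tested and not called (21.4%). Windows of 1 gene share sequence, and the motif was chosen for display after the matches of several motifs had been seen. Genes also weigh unequally, since several of the 12 windows of members that rose, and several of their matches, belong to HDAC9. GC content was similar, with a median of 67.7% in windows of members that fell, 62.5% in those that rose and 67.3% in those not called, against 62.3% over the table. The E-box CACGTG, a palindrome and so the same on both strands, was found in 8.34% of all windows, in 10 of 92 windows of members (10.9%), with 0 of 20 of those that fell, 1 of 12 of those that rose and 9 of 56 of those not called (16.1%).

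PRMT5 (ENSG00000100462, chr14:22920525-22929408 in GENCODE coordinates of GRCh38), the main enzyme of symmetric arginine dimethylation, had 8805, 8139 and 6938 normalized counts in EV B1, B2 and B3 and 2283, 2456 and 2254 in PRL3 B9, B10 and B11. The highest PRL3 library was far below the lowest EV library, and the log2 fold change was −1.77 ± 0.15 (SE, n = 3 per group, adjusted p = 8.62e-06, edgeR). PRMT1 (chr19:49675786-49689029), which places most asymmetric arginine dimethylation, had 26808, 35766 and 25359 counts in EV and 6937, 10496 and 7666 in PRL3. It too was separated in all libraries, with a log2 fold change of −1.81 ± 0.20 (adjusted p = 1.92e-05), or 0.285 of the EV level. PRMT2 had 4988, 4295 and 3913 counts in EV and 2470, 2510 and 1982 in PRL3, a log2 fold change of −0.92 ± 0.16 (adjusted p = 0.000503). All 3 genes were called lower under each of the 16 alternative settings. PRMT7 (−0.34, adjusted p = 0.0637) and PRMT6 (−0.32, adjusted p = 0.105) lay below EV in all libraries without passing the test. PRMT7 was called lower with RLE size factors (−0.38, adjusted p = 0.0462), with DESeq2 and limma-voom, and without EV B1 (−0.40, adjusted p = 0.0285). PRMT9 was at −0.05 and PRMT3 at 0.23 with overlapping libraries. The brain gene PRMT8 reached at most 6 raw reads in a library and was not tested. Of the 7 tested PRMT genes 3 passed the test, all lower (42.9%, against 31.6% of protein-coding genes), with a median of −0.34 over the 7. CARM1, the PRMT4 enzyme that the symbol rule leaves out, fell with a log2 fold change of −1.41 (adjusted p = 4.37e-05).

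Among the lysine methyltransferases 3 fell and 2 rose of 21 (14.3% and 9.52%, against 31.6% and 15.2% of protein-coding genes), with a median of 0.07. KMT2E, a SET-domain protein of the H3K4 family that binds H3K4me3 and whose own catalytic activity is in doubt, had 1360, 1166 and 1632 normalized counts in EV and 2618, 2533 and 2657 in PRL3. The groups did not overlap, and KMT2E rose by a log2 fold change of 0.91 ± 0.16 (adjusted p = 0.000621), a call kept under all 16 alternatives. SETD4 rose from 1268, 1178 and 1047 counts to 1714, 1862 and 1839 (0.63 ± 0.15, adjusted p = 0.00506). Among the H3K4 enzymes, SETD7 fell (−0.67, adjusted p = 0.00781), as did KMT2B (−0.50, adjusted p = 0.026), although KMT2B lost the call when EV B2, EV B3 or any of the 3 PRL3 libraries was left out (adjusted p between 0.063 and 0.104). SETD3, which methylates actin, fell (−0.57, adjusted p = 0.00885). SETD7, KMT2B and SETD3 were not called with library size alone (−0.17, −0.02 and −0.08), nor was SETD4 with all uniquely aligned reads (0.15).

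The large H3K4 enzymes that act at enhancers and promoters were not called. KMT2A, the gene rearranged in mixed-lineage leukaemia, had 10709, 9217 and 9577 counts in EV and 11668, 9713 and 9786 in PRL3 (log2 fold change 0.08 ± 0.15, adjusted p = 0.699). KMT2D, one of the enhancer H3K4 enzymes, had 8551, 13444 and 10323 in EV and 9000, 9017 and 8387 in PRL3 (−0.29 ± 0.17, adjusted p = 0.192), and its 3 EV libraries were spread more widely than the 2 groups lay apart. KMT2D was called lower without EV B1 (−0.44, adjusted p = 0.0473), whereas without EV B2 it was at −0.08. The log2 fold changes of KMT2C (0.13), SETD1A (0.07) and SETD1B (0.29) were likewise not called, although SETD1B was called higher without EV B2 (0.47, adjusted p = 0.0435) and in the fit of protein-coding genes only. On the KMT2A model, 5.76 kb of exon is shared with another gene on the same strand, where reads are left out as ambiguous.

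The H3K27 enzymes of Polycomb repressive complex 2 and the H3K36 and H3K9 enzymes were not called either. EZH2 had 6081, 4718 and 4758 normalized counts in EV and 3869, 4346 and 4658 in PRL3, so all PRL3 libraries lay below EV although by little (−0.27 ± 0.16, adjusted p = 0.178). Its relative EZH1, the form found in cells that divide less, had 1774, 1645 and 1648 in EV and 2108, 1915 and 1966 in PRL3, all above EV (0.24 ± 0.15, adjusted p = 0.202), and was called higher with upper-quartile scaling (0.42, adjusted p = 0.0296). SETD2, the enzyme of H3K36 trimethylation, had 3959, 3377 and 3539 counts in EV and 4088, 3182 and 3599 in PRL3 with a log2 fold change of 0.00 ± 0.15, so the 2 group means were 3625 and 3623. SETDB1, an H3K9 methyltransferase amplified in some melanomas, had 4103, 4205 and 4253 in EV and 4311, 3406 and 3496 in PRL3 (−0.16 ± 0.15, adjusted p = 0.403). PRL3 B9 was above all EV libraries for both SETD2 and SETDB1 while PRL3 B10 was below them. SETDB2 was at 0.12. With all uniquely aligned reads EZH2 (−0.76), SETDB1 (−0.64) and SETD2 (−0.48) were called lower, and with library size alone EZH1 (0.74) was called higher.

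The remaining SET-domain genes were the H4K20 enzymes KMT5A (−0.36, adjusted p = 0.0538, all PRL3 libraries below EV), KMT5B (−0.22) and KMT5C (−0.56, adjusted p = 0.0812), and SETD5 (0.27), SETD6 (0.34, adjusted p = 0.0878, all PRL3 libraries above EV) and SETD9 (0.17). None of the 6 passed the test as reported. KMT5A was called lower with RLE size factors (−0.40, adjusted p = 0.0406), DESeq2 and limma-voom and without EV B3 (adjusted p = 0.0388), and KMT5C with DESeq2 (adjusted p = 0.0488) and without EV B1 (adjusted p = 0.0101). SETD6 was called higher when 10 counts were required in every library (0.38, adjusted p = 0.0448). The same call for SETD6 came with upper-quartile scaling (0.52), library size alone (0.83) and protein-coding genes only (0.52). With all uniquely aligned reads KMT5A (−0.84), KMT5B (−0.71) and KMT5C (−1.03) were called lower.

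**Figure D2:**
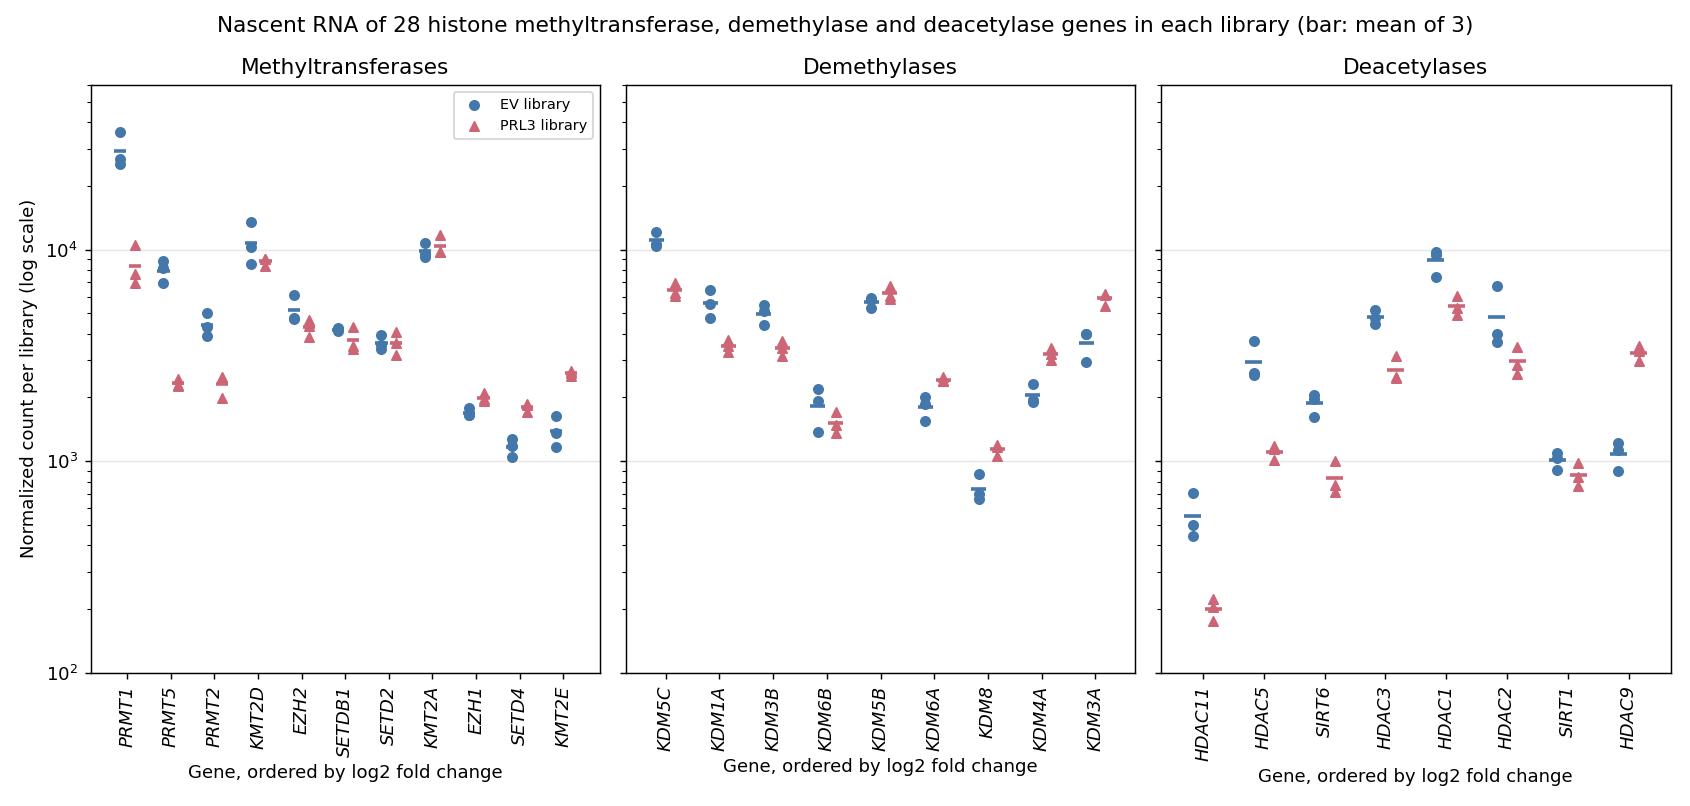
Normalized counts (log scale) of 28 genes, chosen by a fixed rule for their role or for the smallest p in their class, in each of the 3 EV libraries (circles) and 3 PRL3 libraries (triangles), with bars at the group means. PRMT1, PRMT5, HDAC5, HDAC11 and SIRT6 show PRL3 libraries well below EV, HDAC9 and KMT2E well above, and SETD2, KMT2A, KMT2D, SETDB1, KDM5B, KDM6B and SIRT1 show groups close together.

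Demethylases moved in both directions. KDM5C (chrX:53176283-53225422), an H3K4 demethylase mutated in X-linked intellectual disability, had 10613, 12132 and 10422 normalized counts in EV and 6038, 6964 and 6252 in PRL3. The libraries were cleanly separated and the log2 fold change was −0.78 ± 0.15 (adjusted p = 0.000799). KDM1A (LSD1), the flavin demethylase of the CoREST repressor complex, fell from 6443, 5540 and 4729 counts to 3280, 3500 and 3747 (−0.67 ± 0.16, adjusted p = 0.00383). KDM3B, an H3K9 demethylase, had 5097, 5463 and 4391 counts in EV and 3704, 3433 and 3157 in PRL3 (−0.54 ± 0.15, adjusted p = 0.0106), and did not pass the test without PRL3 B11 (adjusted p = 0.0724). Without scaling factors, that is with library size alone, the log2 fold changes of KDM5C, KDM1A and KDM3B were −0.29, −0.17 and −0.04 and none was called.

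Of the genes that rose, KDM3A, the close relative of KDM3B and a hypoxia-induced H3K9 demethylase, went from 3995, 2932 and 3983 counts in EV to 6194, 5417 and 6068 in PRL3 (0.70 ± 0.16, adjusted p = 0.0035). KDM4A, which removes H3K9 and H3K36 trimethylation, rose from 1897, 1937 and 2320 to 3441, 3208 and 3013 (0.65 ± 0.15, adjusted p = 0.00353). Both pairs of groups were apart in all libraries. On the KDM4A model, 40.2% of the exon length is shared with another gene on the same strand, and reads there are not counted. KDM8 rose from 659, 703 and 865 counts to 1171, 1188 and 1059 (0.62 ± 0.17, adjusted p = 0.0113), with an adjusted p of 0.0514 without PRL3 B10. KDM6A (UTX), the X-linked H3K27 demethylase, had 1867, 1552 and 2000 in EV and 2401, 2511 and 2382 in PRL3. Its log2 fold change of 0.43 ± 0.15 was close to the threshold (adjusted p = 0.0375), and the call was lost when EV B2 or any PRL3 library was left out (adjusted p between 0.0871 and 0.114). With these 2 genes lost, 2 demethylases remained called higher without PRL3 B10. The 4 genes that rose were no longer called when all uniquely aligned reads set the library size, with log2 fold changes of 0.22, 0.18, 0.15 and −0.04 for KDM3A, KDM4A, KDM8 and KDM6A.

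The rest of the demethylases were not called. KDM6B, the second H3K27 demethylase, had 1370, 1914 and 2187 counts in EV and 1364, 1707 and 1483 in PRL3 (−0.26 ± 0.19, adjusted p = 0.279), and was called lower without EV B1 (−0.43, adjusted p = 0.0351). KDM5B, an H3K4 demethylase used as a marker of slowly cycling melanoma cells, had 5803, 5279 and 5901 in EV and 6714, 5852 and 6058 in PRL3 (0.13 ± 0.14, adjusted p = 0.48). In both genes the 2 groups overlapped. KDM2A (0.28, adjusted p = 0.125) and KDM4C (0.28, adjusted p = 0.152) lay above EV in every PRL3 library without passing, and both were called higher with upper-quartile scaling (0.45 each). The log2 fold changes of KDM4D (0.34), KDM4B (0.22), KDM5A (0.02), KDM2B (−0.08), KDM7A (−0.19) and KDM1B (−0.20) went with overlapping libraries. KDM4E and KDM4F had at most 1 raw read in a library, and KDM5D did not pass the filter. Of the JmjC demethylases 2 fell and 4 rose of 15 tested (13.3% and 26.7%, against 31.6% and 15.2% of protein-coding genes), with a median of 0.22. Both LSD-type genes had negative values.

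Most deacetylase genes fell with TMM scaling, although not with library size alone. HDAC11 (chr3:13479724-13506424), the single class IV enzyme, had 497, 707 and 444 normalized counts in EV and 175, 224 and 204 in PRL3 (log2 fold change −1.45 ± 0.24, adjusted p = 0.000382). HDAC5 (chr17:44076746-44123702), a class IIa enzyme that shuttles between nucleus and cytoplasm, had 2543, 3678 and 2599 counts in EV and 1138, 1179 and 1010 in PRL3 (−1.41 ± 0.18, adjusted p = 4.81e-05). In both genes even the highest PRL3 library was below the lowest EV library by a wide margin. SIRT6 (chr19:4174109-4182566), a nuclear sirtuin that acts at telomeres and in DNA repair, fell from 1615, 2057 and 1957 counts to 718, 1001 and 773 (−1.17 ± 0.18, adjusted p = 0.000207). SIRT2, the mainly cytosolic sirtuin that deacetylates tubulin, fell as well (−0.97, adjusted p = 0.000588). The calls of these 4 genes held under all 16 alternatives.

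The class I enzymes, which form the catalytic core of the SIN3, NuRD, CoREST and NCoR complexes, fell by similar amounts. HDAC3 had 4459, 5166 and 4733 counts in EV and 2504, 3145 and 2479 in PRL3 (−0.82 ± 0.15, adjusted p = 0.000881). HDAC1 had 9773, 9460 and 7407 in EV and 4887, 6039 and 5267 in PRL3 (−0.72 ± 0.16, adjusted p = 0.00276). HDAC2 had 6725, 3650 and 3987 in EV and 2585, 2857 and 3450 in PRL3 (−0.69 ± 0.22, adjusted p = 0.0205). For HDAC2 the separation was narrow and EV B1 stood well above the other EV libraries. Without EV B1 the log2 fold change of HDAC2 was −0.36 with an adjusted p of 0.0814, and the call was also lost without PRL3 B9 (adjusted p = 0.0983) or PRL3 B10 (adjusted p = 0.0662). The pseudogenes HDAC1P1 and HDAC1P2, copies of HDAC1, rose from means of 34.7 and 83.9 counts to 152 and 249 (log2 fold changes 2.14 and 1.57). Counts hold uniquely aligned reads, so reads that fit gene and copy equally well are in neither. The values of HDAC3, HDAC1 and HDAC2 with library size alone were −0.33, −0.22 and −0.19 and none was called. HDAC8, the class I enzyme outside these complexes, was at −0.22 with overlapping libraries.

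The other deacetylases that fell were the tubulin deacetylase HDAC6 (−0.67, adjusted p = 0.00547), the nucleolar sirtuin SIRT7 (−0.65, adjusted p = 0.00484), and the mitochondrial SIRT3 (−0.71, adjusted p = 0.00648), which had an adjusted p of 0.0541 without PRL3 B11. These 3 were not called with library size alone (−0.19, −0.16 and −0.22). SIRT1, the nuclear sirtuin best known for deacetylating p53, had 1038, 910 and 1089 counts in EV and 760, 841 and 982 in PRL3 (−0.23 ± 0.17, adjusted p = 0.301). Its libraries overlapped, with PRL3 B11 above EV B2. With all uniquely aligned reads SIRT1 was called lower (−0.71). SIRT4 lay below EV in all libraries at low counts (77.4 ± 9.60 in EV and 42.2 ± 17.5 in PRL3, SD, n = 3), with a log2 fold change of −0.87 and an adjusted p of 0.141. HDAC7 (−0.09), SIRT5 (0.22), HDAC10 (0.21) and HDAC4 (0.36) were not called in the reported fit. HDAC4 was called higher with upper-quartile scaling (0.53), library size alone (0.85) and protein-coding genes only (0.54). SIRT5 was called higher with library size alone (0.73) and HDAC7 lower with all uniquely aligned reads (−0.57). HDAC10 had at most 59 raw reads in a library, and 55.8% of its exon length is shared with another gene on the same strand.

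HDAC9 (ENSG00000048052, chr7:18086949-19002416), a class IIa enzyme and the longest gene of the set, was the exception. It had 1218, 894 and 1128 normalized counts in EV and 3309, 2981 and 3484 in PRL3, and the lowest PRL3 library was well above the highest EV library. The log2 fold change was 1.59 ± 0.17 (adjusted p = 1.6e-05), or 3.02-fold, and HDAC9 was called higher under all 16 alternatives, with values between 1.11 with all uniquely aligned reads and 2.09 with library size alone. Of the 26 members called, 9 kept their call under every alternative. Those that fell were PRMT1, PRMT5, PRMT2, HDAC5, HDAC11, SIRT6 and SIRT2, and those that rose were HDAC9 and KMT2E.

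**Figure D3:**
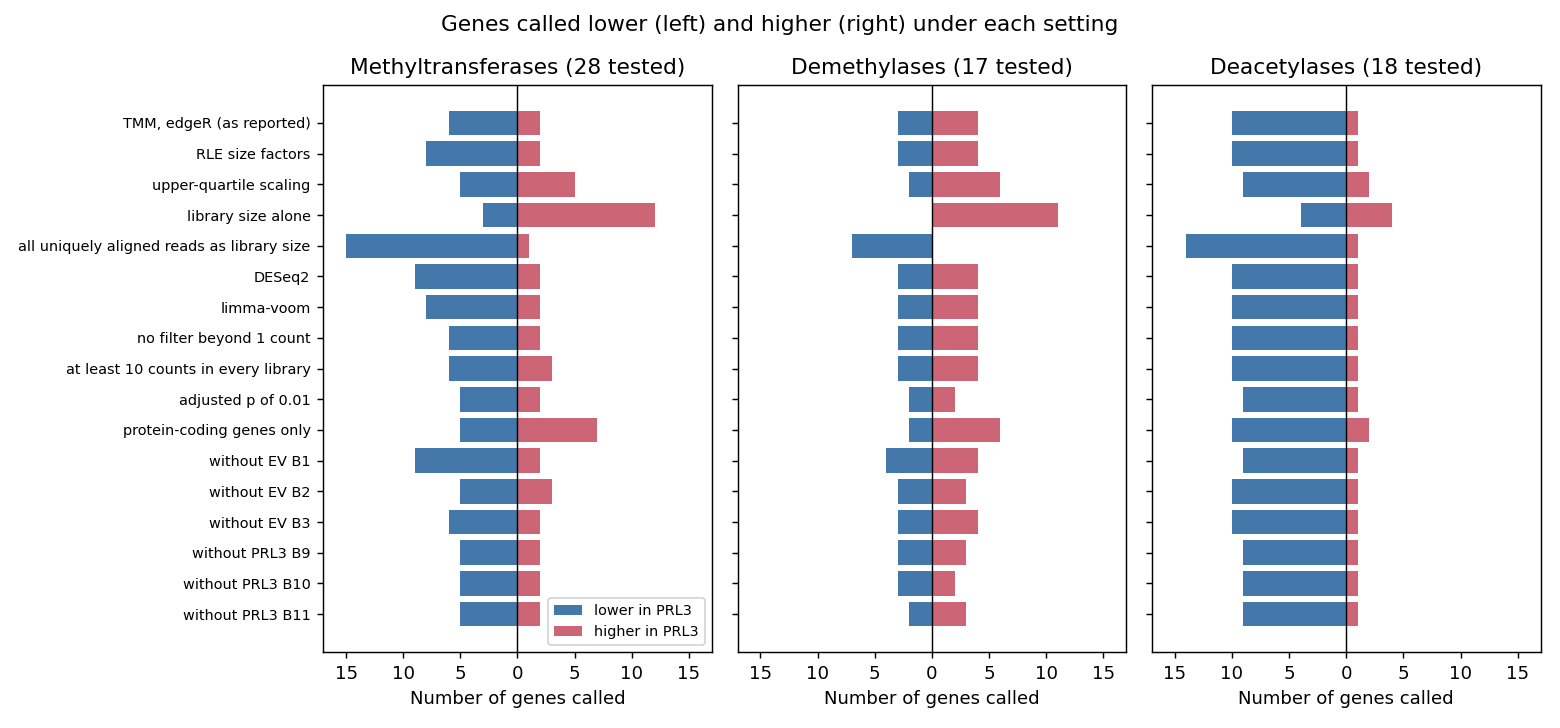
Number of genes called lower (bars to the left) and higher (bars to the right) in each class under the reported fit and 16 alternative settings. The deacetylase panel keeps between 4 and 14 genes on the left and between 1 and 4 on the right, while the demethylase panel runs from 11 higher and 0 lower with library size alone to 7 lower and 0 higher with all uniquely aligned reads.

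Gene span, the distance from the first to the last annotated base, went with the fold change. Across the 63 tested members the Spearman correlation of span with log2 fold change was 0.43, and across the 14443 protein-coding genes it was 0.30. The points share libraries and are not independent, so no p is given. Among members spanning under 30 kb 11 of 23 fell (47.8%), against 43.5% of protein-coding genes of that span. Of those between 30 and 100 kb 7 of 26 fell (26.9%, against 27%), and of those over 100 kb 1 of 14 fell (7.14%, against 12.8%). The gene over 100 kb that fell was SETD7. Genes that rose were spread the other way with increasing span, 1 of 23 (4.35%, against 12% of protein-coding genes), 3 of 26 (11.5%, against 14.9%) and 3 of 14 (21.4%, against 22.5%). These limits of span were chosen after the values had been seen.

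The classes differ in span, with medians of 30.2 kb for deacetylases, 44.8 kb for methyltransferases and 84 kb for demethylases, against 33.9 kb for protein-coding genes tested. Under 30 kb, 7 of 9 deacetylases and 4 of 11 methyltransferases fell, while none of 3 demethylases did. From 30 to 100 kb these counts were 3 of 6, 1 of 12 and 3 of 8. Within a class this correlation was 0.43 for deacetylases, 0.31 for methyltransferases and 0.04 for demethylases. HDAC9 spans 915 kb and PRMT5 8.88 kb. The part of span in the difference between classes was not tested.

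**Figure D4:**
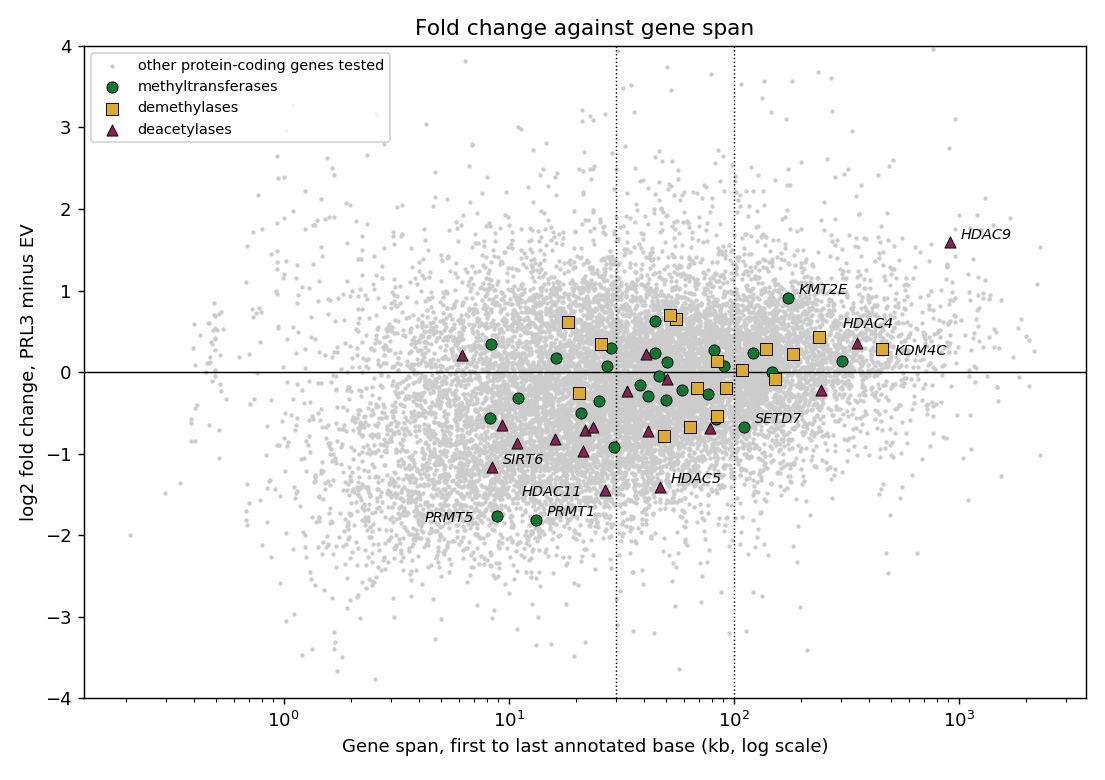
Log2 fold change (PRL3 minus EV) against gene span in kb on a log axis for the tested members by class, over all other protein-coding genes tested with a value within 4 of 0 (grey). Dotted lines stand at 30 and 100 kb. PRMT5, PRMT1, SIRT6 and HDAC11 lie low among short genes and HDAC9 lies high at 915 kb.

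Ratios of related genes within a library do not depend on the scaling between libraries. Over 15 pairs, the 3 PRL3 ratios did not overlap the 3 EV ratios in 7, and none could pass 0.05, since the smallest p of the exact permutation test is 0.1 (two-sided, 0.214 after Benjamini-Hochberg adjustment over the 15 pairs). The share over other pairs of genes was not taken, so whether 7 of 15 is unusual was not tested. Of single protein-coding genes, 36.7% had all PRL3 libraries below EV and 22.2% had all above. The ratio of HDAC4 to HDAC5 had the largest shift, from log2 values of −1.04, −1.10 and −0.56 in EV to 0.85, 0.93 and 0.80 in PRL3, so that HDAC5 had the higher count in EV and HDAC4 in PRL3. Per kb of exon HDAC5 had 386 and HDAC4 111 normalized counts in EV, and 146 and 142 in PRL3, so on that scale the genes came level without changing rank. KDM3A over KDM3B went from −0.35, −0.90 and −0.14 to 0.74, 0.66 and 0.94, and per kb of exon KDM3A and KDM3B had 273 and 633 counts in EV and 443 and 436 in PRL3. SIRT1 over SIRT6 shifted by 0.95, KDM6A over KDM6B by 0.68, EZH1 over EZH2 by 0.51 and KDM2A over KDM2B by 0.36, and KDM1A over KDM1B by −0.50.

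EZH1 over EZH2 had log2 ratios of −1.78, −1.52 and −1.53 in EV and −0.88, −1.18 and −1.24 in PRL3. EZH2 thus had the higher count in all 6 libraries, by less in PRL3. HDAC1 over HDAC2 had 0.54, 1.37 and 0.89 in EV and 0.92, 1.08 and 0.61 in PRL3, where the groups overlapped and the means differed by −0.07 (exact permutation p = 1). The other pairs with overlapping groups were KMT2A over KMT2B (0.56), KDM4A over KDM4B (0.42), KMT2C over KMT2D (0.39), KMT5B over KMT5C (0.32), KDM5A over KDM5B (−0.09), SETD1A over SETD1B (−0.21) and SETDB1 over SETDB2 (−0.35), each given as the PRL3 minus EV difference of mean log2 ratios. Without EV B1 the number of pairs that did not overlap was 11.

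**Figure D5:**
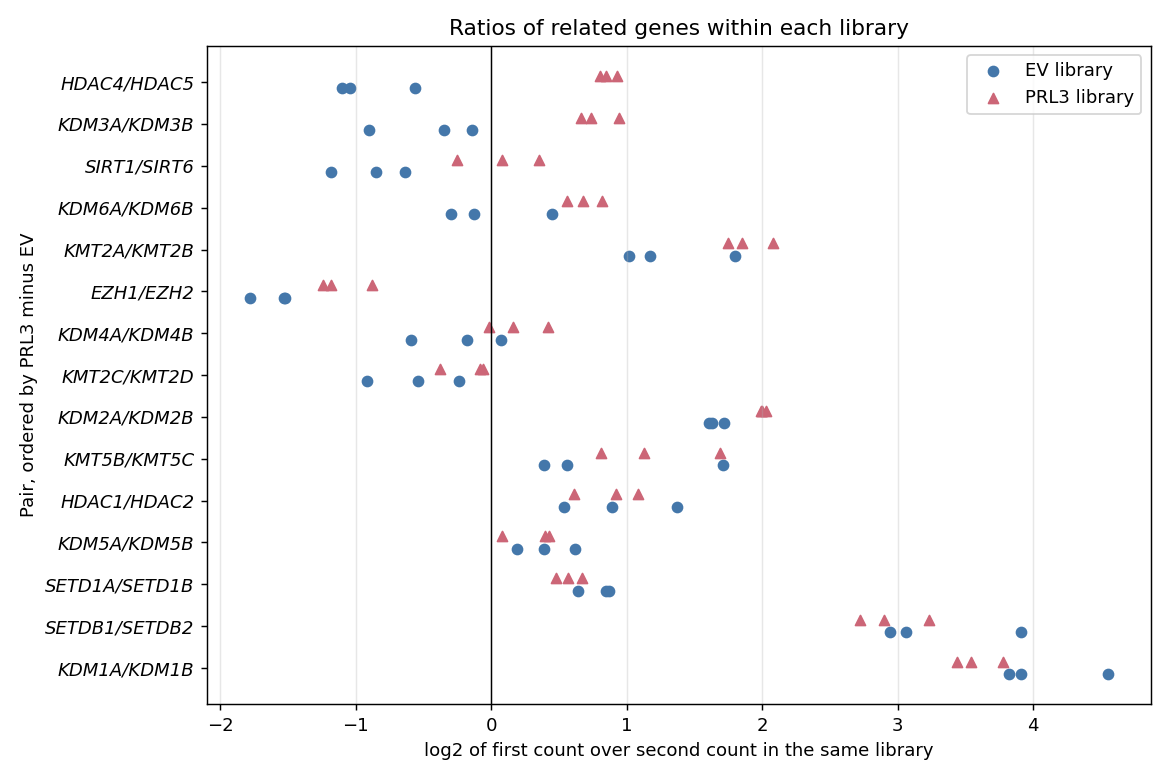
Log2 ratio of 2 related genes' counts within each library (horizontal axis) for 15 pairs, EV libraries as circles and PRL3 libraries as triangles. HDAC4/HDAC5 and KDM3A/KDM3B cross 0 between the groups, and HDAC1/HDAC2 overlaps.

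Partners of these enzymes and enzymes of the same kinds outside the symbol rule were read from the same fit. Of 89 such genes 27 fell (30.3%) and 15 rose (16.9%), with a median log2 fold change of −0.16, near the values of all protein-coding genes (31.6% and 15.2%), against which the counts of each short list below are to be read. By library size alone 17 fell and 37 rose, and with all uniquely aligned reads 52 fell and none rose. Among subunits of deacetylase complexes 11 of 30 fell and 3 rose. SAP18 of the SIN3 complex had a log2 fold change of −1.43 (adjusted p = 2.59e-05) and ARID4B, another SIN3 subunit, one of 0.67 (adjusted p = 0.00747). Among the partners of the H3K4 methyltransferases 6 of 12 fell and 2 rose, among them CXXC1 (−1.49, adjusted p = 3e-05), which targets the SETD1 complexes to CpG islands, and PAXIP1 (0.73, adjusted p = 0.00236), a subunit of the KMT2C and KMT2D complexes.

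The Polycomb repressive complex 2 partners had 3 lower and 2 higher of 10, with PHF1 at −1.26 (adjusted p = 4.84e-05) and JARID2 at 0.85 (adjusted p = 0.000622), both accessory subunits. Other methyltransferases had 3 lower and 3 higher of 18, with CARM1 lowest by p and MECOM (PRDM3) rising by 1.00 on the log2 scale (adjusted p = 0.00166). Other demethylases had 2 lower and 1 higher of 7, with PHF2 at −0.59 (adjusted p = 0.0104) and RIOX2 at 0.90 (adjusted p = 0.00176). The acetyltransferases had 2 lower and 4 higher of 12. KAT2A (GCN5) fell (−1.38, adjusted p = 2.11e-05) and KAT7 rose (0.78, adjusted p = 0.000589).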

How the data were processed

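Nascent RNA of A375 cells with EV or PRL3 was measured by strand-specific 4sU-seq with 150-base paired reads, in 3 libraries per group. The deposited files hold raw read counts per Ensembl gene identifier, which the authors made by aligning to GRCh38 with STAR and counting reads on exons by strand (htseq-count, reverse setting, Ensembl release 91). Per the submitters' processing notes the tools were FastQC 0.11.3, STAR 2.5.1b and HTSeq 0.6.1. The 5 summary rows of each file (reads in no feature, ambiguous and the like) stayed out of the reported library sizes and gene tests. Reads in no feature and ambiguous reads entered the alternative with all uniquely aligned reads as library size. They also entered the share of reads outside exons and its permutation test.

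Of 58243 identifiers, 57532 were matched to symbols, types and coordinates in GENCODE 44 (GRCh38). Counts were tested across all genes with edgeR 4.0.16 in R 4.3.3 (default expression filter, TMM, quasi-likelihood F test, Benjamini-Hochberg over 23884 genes, threshold 0.05), and a gene passing that threshold is called. Standard errors were computed as the absolute log2 fold change over the square root of F. Reads on genes per library ranged from 36532207 to 57952035, and shares and counts carry counting error beside the spread between libraries, since PCR reads are not independent molecules. A chi-square comparison of counts, averaged over genes, gave at least 25.1 for any 2 libraries, above sampling noise, so each was counted as a replicate.

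Genes described with values in every library were chosen for their role or, in each class and direction, as the 3 with the smallest p whose libraries did not overlap. In each related list the gene with the smallest p in each direction was named. The members, gene lists, pairs and rules were chosen with earlier results of these data known. Alternatives were RLE, upper-quartile and no scaling factors, all uniquely aligned reads as library size, DESeq2 1.42.0, limma-voom (limma 3.58.1), other filters, a threshold of 0.01, protein-coding genes only and leaving out each library. Members without a printed log2 fold change did not pass the filter.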

Additional observations from a re-analysis of the deposited data

Results flagged for a closer look

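The share of uniquely aligned reads outside annotated exons, given per library above, averaged 66.3% in PRL3 (SD 3.18, n = 3) and 33.3% in EV (SD 6.75, n = 3). The groups did not overlap (two-sided p = 0.1, exact permutation test, which can give no smaller value for 6 libraries). Reads outside exons are not part of the gene counts and set a library size only in the alternative with all uniquely aligned reads. The part of these reads that falls within introns of the histone-modifying genes was not measured, since counts outside exons are not split by gene.

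Of 12 noncoding genes named after members, 9 were tested and 2 passed an adjusted p of 0.05 (edgeR), both higher in PRL3, where 20.0% of all tested genes rose, so this count is near the general share. KDM4A-AS1, on the strand opposite KDM4A, had 124, 285 and 198 normalized counts in EV and 416, 475 and 442 in PRL3, a log2 fold change of 1.13 (adjusted p = 0.00584). KDM5C-IT1, an intronic transcript annotated inside KDM5C on the same strand, had 25.6, 9.63 and 13.6 counts in EV and 49.4, 66.2 and 78.3 in PRL3, a log2 fold change of 1.99 (adjusted p = 0.0113), while KDM5C itself had a log2 fold change of −0.78. Unspliced KDM5C RNA is counted to KDM5C-IT1 where they coincide on the strand, so the intronic transcript and KDM5C introns cannot be told apart in these counts. Counting used strand, so KDM4A-AS1 and KDM4A are counted apart. Their counts were flagged as signal above the EV level outside the member list.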

How the results depend on the processing

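The scaling between libraries moved these counts most. Over the genes tested the median change (log2) stood at 0.11 as reported, 0.60 by library size alone, 0.29 by upper-quartile scaling, −0.37 by all uniquely aligned reads and 0.03 in the fit limited to protein-coding genes, and the cause was not tested. With upper-quartile scaling 13 members, 5 methyltransferases and 2 deacetylases were higher. With library size alone 7 members were lower and 27 higher, split into 3 and 12 methyltransferases, 0 and 11 demethylases and 4 and 4 deacetylases, with 17 and 37 of the related genes. With all uniquely aligned reads 36 members were lower and 2 higher, with 15 and 1 methyltransferases, 7 and 0 demethylases and 52 and 0 related genes. With protein-coding genes only 15 members, 7 methyltransferases and 2 deacetylases were higher, and at a threshold of 0.01 2 demethylases were.

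Leaving out 1 library gave 16 to 22 members lower and 5 to 7 higher, 2 to 4 demethylases higher and 7 to 11 pairs without overlap. Signs changed within these ranges for HDAC7 (−0.20 to 0.04), KDM1B (−0.39 to 0.08), KDM5A (−0.10 to 0.16), PRMT9 (−0.21 to 0.12), SETD2 (−0.09 to 0.09), SETD1A (−0.05 to 0.30), KMT2A (0.00 to 0.14) and SETDB2 (−0.11 to 0.29), and for the ratios HDAC1/HDAC2 (−0.26 to 0.15) and KDM5A/KDM5B (−0.20 to 0.02). With an arm of 2 libraries the spread is pooled over genes and groups. Related genes, PTP4A3 and reads outside exons were recomputed as alternatives chosen after seeing the data. Calls by RLE, DESeq2, limma-voom and other filters were within 1.5 times the reported counts. No paired analysis was possible because EV (B1 to B3) and PRL3 (B9 to B11) have no number in common.

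Changes of sign were confined to genes not called in the reported fit, apart from KDM6A with all uniquely aligned reads. With library size alone, some of the genes that changed sign were called higher. Other genes not called in the reported fit were called higher in that setting or lower with all uniquely aligned reads. The changes of sign were KDM5A −0.01 with RLE and −0.01 with DESeq2, and SETD2 0.03 without a filter and 0.04 with 10 counts required in every library. With upper-quartile scaling they were HDAC7 0.08, KDM2B 0.10, SETDB1 0.02, PRMT9 0.13 and SETD2 0.19, and with protein-coding genes only HDAC7 0.09, KDM2B 0.10, SETDB1 0.02, PRMT9 0.13 and SETD2 0.18. By library size alone they were SIRT1 0.25, HDAC8 0.28, HDAC7 0.40, KDM6B 0.21, KDM1B 0.29, KDM7A 0.30, KDM2B 0.41, KMT5A 0.14, PRMT7 0.15, PRMT6 0.17, KMT2D 0.20, EZH2 0.22, KMT5B 0.28, SETDB1 0.34, PRMT9 0.44 and SETD2 0.50. With all uniquely aligned reads they were HDAC10 −0.27, SIRT5 −0.26, HDAC4 −0.11, KDM5A −0.45, KDM5B −0.35, KDM4B −0.26, KDM2A −0.20, KDM4C −0.20, KDM4D −0.12, KDM6A −0.04, SETD1A −0.41, KMT2A −0.40, SETDB2 −0.35, KMT2C −0.35, SETD9 −0.30, PRMT3 −0.25, EZH1 −0.24, SETD5 −0.21, SETD1B −0.19 and SETD6 −0.14.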
